A study of Mus musculus with 5 samples.

Results

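Gene expression was measured in epithelial cells sorted from mouse trachea, and the genes described here are 34 genes of glucose breakdown and of the response to low oxygen. They were taken from a fixed list, chosen with earlier results of these data known. By role they were divided into 20 genes of glucose transport, glycolysis and its regulation, and 14 other genes that respond to hypoxia-inducible factor (HIF). The array's annotation gave 31 of the 34 genes at least 1 probe set of their own, among 18193 such genes in all; these 31 genes had 68 probe sets, 3 of them control probe sets for Gapdh. A filter on dim probe sets, set on the mean over all 5 arrays, left 29 of the 34 among 12536 tested genes. Slc2a3 was below it, Gapdh had control probe sets only, which stayed out of the main test, Bnip3l shared its probe sets with a pseudogene, and Gpi1 and Eno1 were not analysed here.

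The samples were RNA from sorted cells of C57BL/6 mice, male and female, 8 to 12 weeks old, hybridised to an Affymetrix mouse expression array. The 2 basal arrays held ITGA6+ cells, also sorted by a further surface antigen, from surface epithelium that dispase had freed from the lower part of the trachea. The 3 duct arrays held cells of the upper part, positive for that antigen and negative for ITGA6, from what pronase left behind after stripping off the surface epithelium. Each sample was its own pool of 10 to 15 mice. Enzyme, tracheal section and sort gate differed along with the cell type, so their effects cannot be told apart. No genotype or treatment other than the cell isolation was named, and a pool gives the average over its animals.

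Glycolysis splits glucose into pyruvate in the cytosol and yields ATP without oxygen. Glucose enters through transporters, is trapped by hexokinase and committed by phosphofructokinase, and the pyruvate at the end is either turned to lactate and exported or burned in mitochondria. HIF is a transcription factor whose alpha subunit is marked for destruction by prolyl hydroxylases of the Egln family while oxygen is present. When oxygen falls, HIF raises most genes of glycolysis together with genes of mitophagy, blood vessel growth, collagen hydroxylation and its own hydroxylases. Many of these genes also answer to other signals, such as growth factors and differentiation.

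Egln3, a HIF prolyl hydroxylase, was 11.1-fold higher in duct than in basal cells and was the only one of the 29 tested genes that passed the test. The glucose transporter Slc2a1, the hexokinase Hk2 and the phosphofructokinase Pfkp were above both basal arrays on all 3 duct arrays, by 1.73-fold to 2.67-fold, without passing the test over all genes. The HIF response genes gave no common direction: Ndrg1 lay above the basal arrays on every duct array, Vegfa and Bnip3 below them, and Car9, Ddit4 and Egln1 overlapped. Outside the list, the lactate and pyruvate transporter Slc16a1 and the pyruvate dehydrogenase kinase Pdk4 rose in duct cells.

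Differences are given as duct less basal in log2(intensity + 16), a scale that understates dim genes, and a gene was called at a limma adjusted p under 0.05 over all 12536 tested genes. By that rule 0.973% of all tested genes were called, 0.838% higher and 0.136% lower in duct cells. Over all tested genes the median log2 fold change was -0.12, which quantile normalization moved to -0.05 and median centring to 0.08, and small differences are read against these values. In bulk samples fewer cells of a type and less RNA per cell cannot be told apart.

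The markers of the label were present, with 1 against the sort. All 7 measured genes of the labelled epithelium were above the array background, here the brightest probe set for a Bacillus transcript, on all 5 arrays; their summed intensity was 60804 and 64275 on the basal and 87648 to 99419 on the duct arrays. Itga6, whose protein was sorted for in basal and against in duct cells, measured 5954 and 4545 in basal and 6011, 6217 and 6346 in duct cells, so its RNA was not lower on the arrays labelled as cells without it. The basal keratin Krt14, named after its values were seen, was itself 3.78 higher on the log2 scale in duct cells. It was the largest of the 7, of which 6 had a positive log2 fold change, Krt15 at 0.14 and Epcam at 0.08. Trp63 went the other way at -0.33, with 9891 and 8038 in basal and 7243, 7053 and 6944 in duct cells. Other marker lists moved between the groups. The sum of 8 squamous genes was 8916 and 10805 on the basal and 78965 to 102441 on the duct arrays, that of 7 cell cycle genes 10086 and 10837 against 20509 to 25009, and that of 4 thyroid genes 212 and 235 against 9154 to 20879, nearly all from Tg. That of 8 immediate early genes was 107276 and 119773 against 80368 to 86511. The sums of 7 leukocyte genes, at 6270 and 17565 against 13607 to 20401, and of 8 cartilage genes, at 2169 and 2476 against 2295 to 3245, overlapped. So did those of 8 skeletal muscle genes, at 570 and 876 against 362 to 605, and of 6 endothelial genes, at 684 and 932 against 496 to 791. Most of the leukocyte sum came from Lyz2, at 5374 and 16327 in basal and 19517, 12275 and 18187 in duct cells. Of the 8 cartilage genes, 2 had every duct array above both basal arrays, among them Sox9 at 3.20, and 1, Chad at -1.21, every duct array below. Over all tested genes 16.5% had every duct array above and 22.6% every duct array below. The 3 club cell genes summed to 72852 and 94965 against 58998 to 65646. The part of these cells and states in the results below was not tested. RNA quality, read as the ratio of the 3′ to the 5′ control probe set of Gapdh, was 3.24 and 4.64 on the basal and 3.92, 3.95 and 4.37 on the duct arrays, which overlapped. The ratio of the 3′ to the middle probe set was 3.18 and 2.90 on the basal and 2.17, 2.45 and 2.80 on the duct arrays, with both basal arrays above all duct arrays; its part in the results was not tested. Duct replicate 1 stood apart in scale, its median intensity being 92.3 where the other 4 arrays had 147 to 153, and its background 39.5 where they had 55.9 to 86.5. Without it the median log2 fold change was 0.46 for the glycolysis and 0.08 for the HIF response genes.

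The core HIF motif was searched in the 250 bases before each annotated transcript start, since the genes were listed for their HIF response. The sequences below show some members with no overlap between the groups in either direction, Vegfa with both of its windows. They also show Ldha, a classical HIF target whose arrays overlapped. Sequences are from RefSeq on build GRCm38.p6, 5′ to 3′ on the gene's strand. The motif was ACGTG or GCGTG on either strand, so that CACGT and CACGC mark the opposite strand and CACGTG counts on both; capitals mark the matches.
Egln3 upstream region, chr12:54203875-54204124 (- strand): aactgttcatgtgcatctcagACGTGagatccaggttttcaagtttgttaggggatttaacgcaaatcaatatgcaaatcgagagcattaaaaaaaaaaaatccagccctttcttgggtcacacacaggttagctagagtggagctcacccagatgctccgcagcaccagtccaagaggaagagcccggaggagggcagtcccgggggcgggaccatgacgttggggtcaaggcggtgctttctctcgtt
Slc2a1 upstream region, chr4:119108495-119108744 (+ strand): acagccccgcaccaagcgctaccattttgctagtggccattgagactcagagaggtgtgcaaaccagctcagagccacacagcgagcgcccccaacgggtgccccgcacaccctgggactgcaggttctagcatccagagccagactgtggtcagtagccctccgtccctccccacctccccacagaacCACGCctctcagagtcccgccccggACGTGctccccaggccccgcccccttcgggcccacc
Hk2 upstream region, chr6:82774455-82774704 (- strand): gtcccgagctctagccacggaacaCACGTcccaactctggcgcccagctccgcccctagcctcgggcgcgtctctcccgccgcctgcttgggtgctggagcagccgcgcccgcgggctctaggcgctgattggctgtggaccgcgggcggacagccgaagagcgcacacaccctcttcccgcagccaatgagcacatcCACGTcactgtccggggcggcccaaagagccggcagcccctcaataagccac
Pfkp upstream region, chr13:6648772-6649021 (- strand): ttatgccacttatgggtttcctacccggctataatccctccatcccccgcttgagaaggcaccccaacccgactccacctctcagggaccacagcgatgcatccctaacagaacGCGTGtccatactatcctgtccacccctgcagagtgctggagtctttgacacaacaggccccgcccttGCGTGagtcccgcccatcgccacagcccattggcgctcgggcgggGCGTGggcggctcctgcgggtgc
Ldha upstream region, chr7:46845554-46845803 (+ strand): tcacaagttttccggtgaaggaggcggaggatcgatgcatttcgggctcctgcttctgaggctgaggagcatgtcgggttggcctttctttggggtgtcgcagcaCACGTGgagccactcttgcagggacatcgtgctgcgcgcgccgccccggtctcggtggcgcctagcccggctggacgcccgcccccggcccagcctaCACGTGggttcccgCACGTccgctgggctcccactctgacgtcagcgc
Bnip3 upstream region, chr7:138909507-138909756 (- strand): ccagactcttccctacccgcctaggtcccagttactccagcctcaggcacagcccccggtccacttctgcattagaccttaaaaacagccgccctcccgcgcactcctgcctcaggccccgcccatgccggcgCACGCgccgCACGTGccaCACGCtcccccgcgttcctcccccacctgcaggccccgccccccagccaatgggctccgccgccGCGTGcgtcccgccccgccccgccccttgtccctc
Vegfa upstream region, chr17:46025164-46025413 (- strand): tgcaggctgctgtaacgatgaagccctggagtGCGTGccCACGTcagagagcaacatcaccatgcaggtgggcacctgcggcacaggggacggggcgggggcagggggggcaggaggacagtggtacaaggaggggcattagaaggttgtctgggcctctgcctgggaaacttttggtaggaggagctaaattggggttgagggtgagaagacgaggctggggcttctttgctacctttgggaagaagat
Vegfa upstream region, chr17:46032378-46032627 (- strand): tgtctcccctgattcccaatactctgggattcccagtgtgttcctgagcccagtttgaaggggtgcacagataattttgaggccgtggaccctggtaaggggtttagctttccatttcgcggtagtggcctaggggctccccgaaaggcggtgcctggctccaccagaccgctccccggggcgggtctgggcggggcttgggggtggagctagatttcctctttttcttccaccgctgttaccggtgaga
The Egln3 window held 1 match and the Bnip3 window 5, and this Ldha window 5 as well. The Vegfa window at 46032378, before the start further upstream, held 0. The other Vegfa window held 2 matches, but it lies downstream of that start, before an internal one. Its matches are thus not upstream of the whole gene. Of the listed genes, 31 had entries, with 44 windows in all. The motif was in 36 of the 44 windows, or 81.8%, against 38.6% of all 32851 windows. Windows of the same gene can overlap, as for Aldoa and Eno1, so a match can count more than once. By gene, 29 of the 31 had the motif in at least 1 window, against 41.5% of all 27025 genes. The motif holds a CG, and the members' windows were rich in CG, with a median of 15 CG pairs against 6 in all windows; of all windows with at least 15, 67.9% held the motif. A match describes these letters only and shows no binding.

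Among the genes of glucose uptake and the first steps of glycolysis, Slc2a1, the main basal glucose transporter of many epithelia, measured 7368 and 7585 on basal replicates 1 and 2, against 12216, 12023 and 14791 on duct replicates 1, 2 and 3. All duct arrays exceeded both basal arrays, and the log2 fold change was 0.79 (adjusted p = 0.176, SE 0.24, 95% interval 0.20 to 1.38). The other probe sets of the gene gave 0.94 and 0.97, also with no overlap of the groups. Slc2a3, a transporter with high affinity for glucose, was near background, at 9.89 and 41.5 on the basal and 60.3 to 83.9 on the duct arrays at its most intense probe set, and its 4 probe sets differed in sign.

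Hk2, the inducible hexokinase, measured 1512 and 1558 on the basal arrays, against 5229, 3231 and 4139 on the duct arrays. This was the largest difference among the glycolysis genes, at a log2 fold change of 1.42 (adjusted p = 0.0915, SE 0.29, 95% interval 0.70 to 2.13), or 2.67-fold. Hk1, the widely expressed hexokinase, measured 721 and 737 in basal and 760, 649 and 689 in duct cells, with overlapping groups and a log2 fold change of -0.06 (95% interval -0.63 to 0.50) that turned to 0.03 with quantile normalization and 0.15 with median centring. Its second probe set gave 0.69, with all duct arrays above the basal ones, so the probe sets of Hk1 did not give one answer.

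Pfkp, the platelet-type phosphofructokinase, measured 1023 and 775 on the basal arrays, against 2243, 1695 and 2072 on the duct arrays. The lowest duct array lay above the highest basal array, and the log2 fold change was 1.15 (adjusted p = 0.114, SE 0.27, 95% interval 0.48 to 1.81). A dimmer probe set of the gene had 155 and 136 in basal and 1261, 471 and 658 in duct cells, a log2 fold change of 2.21, and the remaining one had 0.67 with overlapping groups. Pfkl, the liver-type enzyme, measured 763 and 1161 against 1569, 936 and 1139, a log2 fold change of 0.33 (95% interval -0.50 to 1.16), with overlap. Of the 5 tested genes of uptake and first steps, 3 had all duct arrays above both basal arrays, as had 16.5% of all tested genes. None of the 5 was called, where 0.973% of all tested genes were.

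The later steps, from aldolase to lactate dehydrogenase, had smaller differences. Pgk1, phosphoglycerate kinase, measured 4862 and 5427 in basal and 8611, 6986 and 8345 in duct cells, with a log2 fold change of 0.63 (adjusted p = 0.250, SE 0.24, 95% interval 0.03 to 1.22). Its 3 probe sets ran from 0.58 to 0.71, and none overlapped between groups. Pkm, pyruvate kinase, measured 5331 and 4943 against 9334, 6648 and 7867, at 0.62. Pgam1, phosphoglycerate mutase, measured 9207 and 9069 against 12896, 11760 and 13453, at 0.47. Of the 7 tested genes of the later steps, these 3 had all duct arrays above both basal arrays, as had 16.5% of all tested genes, and 4 overlapped.

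Aldoa, Tpi1 and Ldha, which encode aldolase, triosephosphate isomerase and the lactate dehydrogenase A chain, overlapped between the groups at their most intense probe sets. Ldha measured 8951 and 10279 in basal and 10803, 9697 and 11293 in duct cells, a log2 fold change of 0.14 (95% interval -0.44 to 0.72), or -0.04 with quantile normalization. Aldoa was at -0.08, or 0.12 with median centring. Its 5 probe sets ran from -0.10 to 0.37, and 2 of them had all duct arrays above both basal arrays. Tpi1 was at 0.31, with 6200 and 4945 in basal and 7922, 5030 and 8053 in duct cells, where duct replicate 2 sat with the basal arrays. Of the 3 Tpi1 probe sets, 1 had all duct arrays above both basal arrays. Aldoc, a brain-type aldolase, was dim on basal replicate 1, at 101 against 323 on basal replicate 2, and its duct arrays lay between, at 267 to 295. Gapdh, read at its 3′ control probe set, measured 12534 and 13766 in basal and 16077, 17114 and 20875 in duct cells; added to the tested genes it had a log2 fold change of 0.45 (adjusted p = 0.393, SE 0.25), and all 3 of its control probe sets had duct arrays above both basal arrays.

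**Figure D1:**
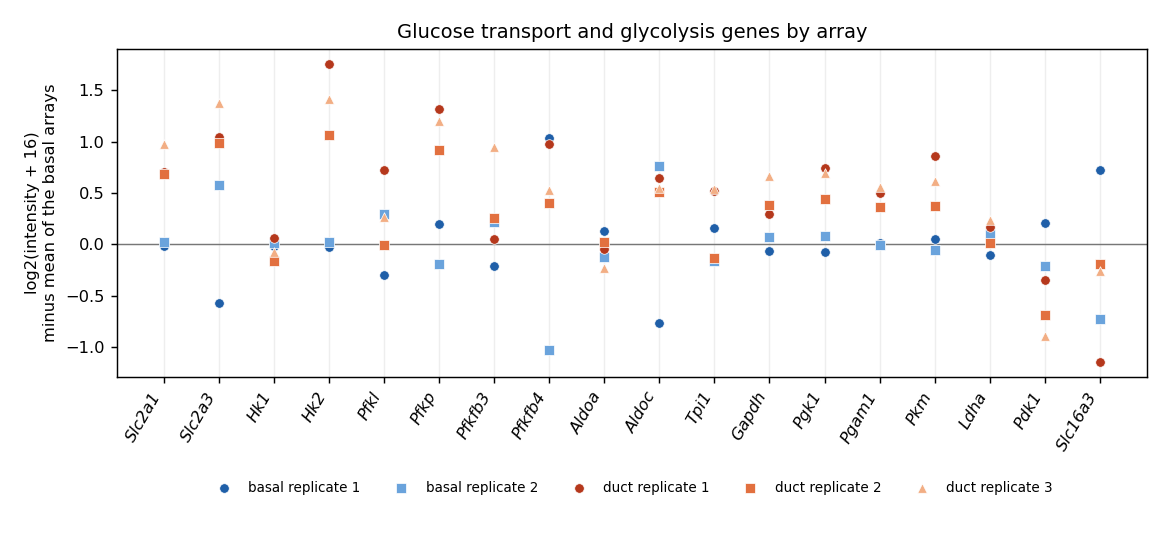
Values of the 18 glycolysis genes with a probe set, by array, as log2(intensity + 16) minus the mean of the basal arrays (y axis); Slc2a3 was below the filter and Gapdh is read at a control probe set. The duct points of Slc2a1, Hk2 and Pfkp sit above both basal points. Those of Hk1, Aldoa and Ldha overlap with the basal points in range, and those of Pdk1 sit below.

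Of the 4 tested regulators and exporters of the pathway, 0 were called by limma in either direction, also before adjustment. Over all tested genes 0.973% were called, and 7.91% were higher and 10.6% lower before adjustment (p under 0.05). Pdk1, the kinase that shuts pyruvate dehydrogenase and a HIF target, measured 842 and 624 in basal and 567, 442 and 384 in duct cells, a log2 fold change of -0.64 (adjusted p = 0.308, SE 0.29, 95% interval -1.36 to 0.07). Its 4 probe sets gave -0.64, 0.06, 0.55 and 1.71, so the gene has no settled direction here. The probe set at 1.71 had 52.9 and 67.4 on the basal arrays, not above their background, and 66.6, 242 and 702 on the duct arrays. It passed the filter on low values only through duct replicates 2 and 3, and adds no independent support. Pfkfb4 measured 228 and 42.3 in basal and 219, 142 and 156 in duct cells, and its log2 fold change of 0.64 (adjusted p = 0.624) rested on basal replicate 2, turning to -0.39 without it. Pfkfb3, which like Pfkfb4 makes the phosphofructokinase activator fructose 2,6-bisphosphate, was at 0.42 with overlapping groups. Slc16a3, the lactate exporter of glycolytic cells, measured 359 and 121 against 86.5, 182 and 174, a log2 fold change of -0.53 that turned to 0.19 without basal replicate 1.

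In all, 0 of 16 tested glycolysis genes passed over all genes, where 0.838% of all genes were called higher; 4 were higher and 0 lower before adjustment (p under 0.05), where 7.91% and 10.6% of all genes were. Of the 16, 12 had a positive log2 fold change, as had 41.6% of all tested genes, and 6 had every duct array above both basal arrays, as had 16.5%; 1 had every duct array below, as had 22.6%; the groups of 39.1% of all genes did not overlap in one direction or the other. Their median log2 fold change was 0.45, against -0.12 over all tested genes. By array, the median difference from the basal mean was 0.58, 0.31 and 0.55 on duct replicates 1, 2 and 3, and -0.18, -0.03 and -0.05 over all tested genes. With an intensity trend and robust fit in limma, which called 7.51% of all genes (4.51% higher and 3.01% lower), 6 of the 16 were called higher: Slc2a1, Hk2, Pfkp, Pgk1, Pgam1 and Pkm, at adjusted p from 0.00272 to 0.0435. With a stricter filter, which dropped the dimmest 60% of probe sets, Hk2 was called (adjusted p = 0.0435), where 4.39% of all genes were (2.69% higher and 1.7% lower). The cell cycle and squamous lists were higher in the same duct arrays, and their part in these values was not tested.

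Egln3 is the oxygen-sensing hydroxylase most readily induced by HIF in many cells. It measured 104 and 97.6 on the basal arrays, against 1795, 1043 and 1108 on duct replicates 1, 2 and 3. The basal values were just above the background of their arrays, at 59.7 and 86.5, and the duct arrays stood far above them, highest on duct replicate 1. The means were 101 ± 4.64 (SD, n = 2) and 1315 ± 417 (SD, n = 3), with a log2 fold change of 3.47 (adjusted p = 0.0160, SE 0.32, 95% interval 2.68 to 4.25), the rank of 55 among 12536 genes from the highest. Its second probe set had 68.4 and 50.2 in basal and 1213, 692 and 739 in duct cells, at 3.54; basal replicate 2 was not above the background of its array there, so the size rests on 1 measured basal array. When every probe set was tested with limma, 2 of the 60 tested probe sets of the listed genes were called, both of Egln3 (adjusted p = 0.0331 and 0.0359), where 0.233% of all probe sets were called and 0.215% were called higher. The dimmer of these passed the filter on low values only through the duct arrays, where it is high, and its call adds no independent support. The call was lost without basal replicate 1 (adjusted p = 0.152), basal replicate 2 (0.122), duct replicate 2 (0.0608) or duct replicate 3 (0.0980), and stayed without duct replicate 1 (0.0304); the log2 fold change stayed between 3.22 and 3.61.

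The other hydroxylases of the family did not pass the test. Egln1, the main HIF hydroxylase of most cells, measured 2694 and 1296 in basal and 2551, 1656 and 2128 in duct cells, a log2 fold change of 0.15 (95% interval -0.82 to 1.13) with wide overlap. Its second probe set gave 0.00. Egln2, from the list of HIF machinery and named for its family after its values were seen, measured 3386 and 3850 against 3036, 2601 and 2701, at -0.38 (adjusted p = 0.440).

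Ndrg1, a stress and differentiation gene that HIF induces, measured 5390 and 3936 in basal and 10099, 8536 and 9037 in duct cells. All duct arrays exceeded both basal arrays, at a log2 fold change of 1.00 (adjusted p = 0.137, SE 0.26, 95% interval 0.35 to 1.64). The remaining 4 probe sets ran from 1.06 to 1.74, again with no overlap, so all 5 probe sets gave the same order of the groups. The dimmest of them, at 1.74, had 46.5 and 127 on the basal arrays, and basal replicate 1 was not above its background. It passed the filter on low values only through the duct arrays, where it is high, and adds no independent support. With the intensity trend and robust fit Ndrg1 was called higher (adjusted p = 0.00361).

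Vegfa, the growth factor of blood vessels, lay the other way. It measured 2623 and 2455 on the basal arrays, against 854, 1728 and 622 on the duct arrays. Every duct array was below both basal arrays, duct replicate 2 least so, and the log2 fold change was -1.37 (adjusted p = 0.207, SE 0.46, 95% interval -2.50 to -0.24). The second probe set overlapped between groups and gave -0.52, with 1193 on duct replicate 2 above both basal arrays. With the intensity trend and robust fit Vegfa was called lower (adjusted p = 0.0460).

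Bnip3, which drives removal of mitochondria, measured 1354 and 1187 in basal and 757, 964 and 629 in duct cells, a log2 fold change of -0.70 (adjusted p = 0.263, SE 0.28, 95% interval -1.39 to -0.02). Its groups did not overlap. Higd1a, a mitochondrial protein of the respiratory chain induced by low oxygen, was at -0.24, and its 3 probe sets ran from -0.24 to -0.16. Mxi1, a repressor of the Myc network, was at -0.24 with overlap at 1 probe set and at -0.74 at the other, where duct arrays at 910 to 1178 lay below basal arrays at 2111 and 1350. None of these 3 mitochondrial and Myc-linked genes passed the test.

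Adm, the vasodilator peptide adrenomedullin, measured 11570 and 13442 in basal and 15954, 16495 and 22998 in duct cells, at 0.55 (adjusted p = 0.355, SE 0.28), with 1.19 at a dimmer probe set. P4ha1, a collagen prolyl hydroxylase, measured 287 and 296 against 347, 632 and 489, at 0.68 (adjusted p = 0.319), with overlap at its dimmer probe set. P4ha2, of the same enzyme family, was at 0.31, with 236 and 271 in basal and 274, 288 and 406 in duct cells. For these 3 genes the duct arrays lay above both basal arrays, as for 16.5% of all tested genes, without passing the test. Ankrd37 measured 86.3 and 125 against 195, 116 and 252, at 0.70 (adjusted p = 0.382), and duct replicate 2 fell within the basal range.

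Car9, a carbonic anhydrase widely used as a marker of hypoxic cells, measured 307 and 154 in basal and 241, 90.8 and 425 in duct cells. The duct arrays alone spanned more than the groups differed, and the log2 fold change of -0.03 (95% interval -1.62 to 1.56) turned to 0.12 with quantile normalization and 0.18 with median centring. Ddit4, an inhibitor of mTOR signalling induced by hypoxia and other stress, measured 6597 and 5289 against 3562, 7695 and 5037, at -0.19, or 0.01 with median centring. For both genes no difference was detectable with these 5 arrays.

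**Figure D2:**
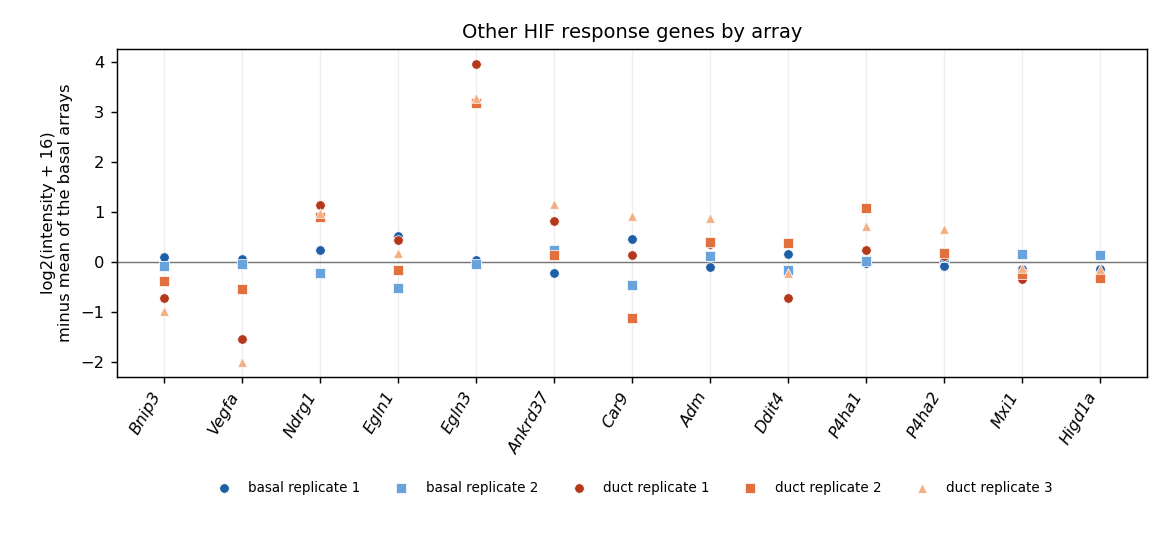
Values of the 13 HIF response genes with a probe set, by array, as log2(intensity + 16) minus the mean of the basal arrays (y axis). The duct points of Egln3 stand about 3 to 4 above the basal points, those of Ndrg1 about 1 above, and those of Vegfa and Bnip3 below.

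Of the 13 tested HIF response genes, 1 was called higher and 0 lower, where 0.838% and 0.136% of all genes were. The call was that of Egln3, already known from earlier work on these data when the list was made. The count therefore gives no independent support. Of the 13, 7 had a positive and 6 a negative log2 fold change. In 5 every duct array lay above both basal arrays and in 3 every duct array below, where 16.5% and 22.6% of all genes did. Their median was 0.15, or 0.06 without Egln3, against 0.45 for the glycolysis genes. That median moved to 0.43 without basal replicate 1 and to -0.09 without basal replicate 2. By array it was 0.13, 0.13 and 0.65 above the basal mean on duct replicates 1, 2 and 3, so duct replicate 3 stood apart in it. The difference between the medians of both groups of genes was not tested.

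**Figure D3:**
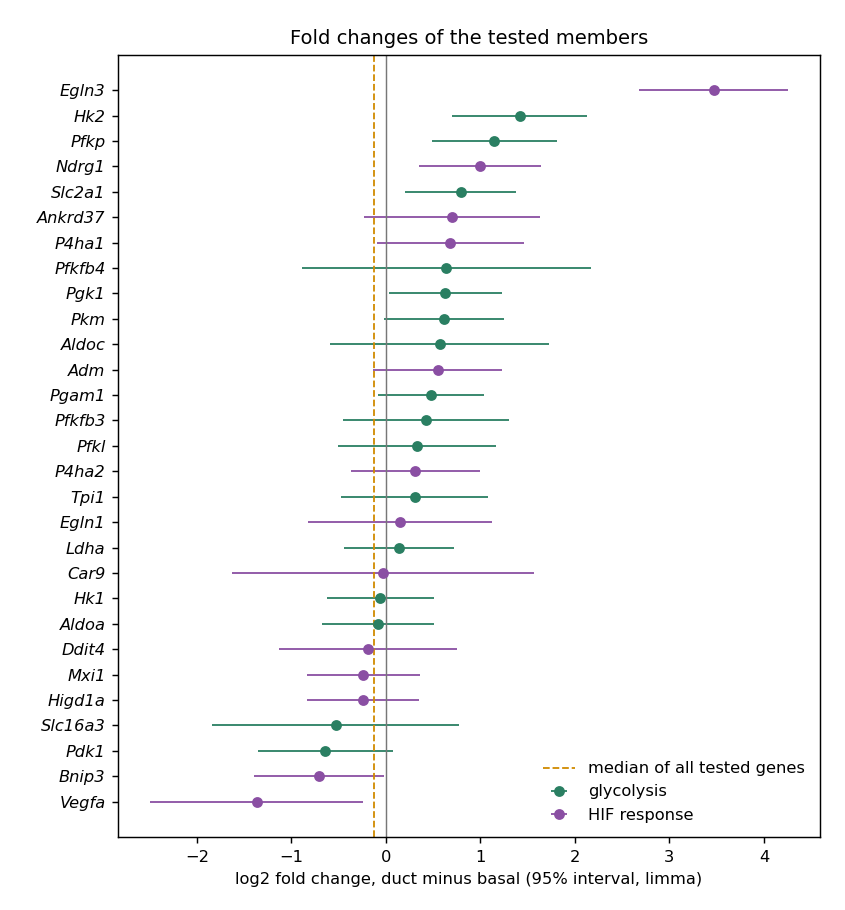
Log2 fold changes, duct minus basal, of the 29 tested genes with 95% intervals from limma (x axis), ordered by size and coloured by group; the dashed line is the median of all tested genes, -0.12. Egln3 at 3.47 is set apart from the next gene, Hk2 at 1.42, and Vegfa at -1.37 is the lowest.

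Of the listed genes, 17 had 2 or more tested probe sets, and in 3 of them, Hk1, Aldoa and Pdk1, the probe sets differed in sign. Probe sets of 1 gene can read different transcript ends, so a gene with discordant probe sets has no single value here. For Slc2a1, Pgk1, Ndrg1, Egln3 and Adm, every tested probe set had all duct arrays above both basal arrays. The dimmest tested probe sets of Ndrg1, Egln3, Pdk1 and Pfkfb3 passed the filter only through duct arrays.

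**Figure D4:**
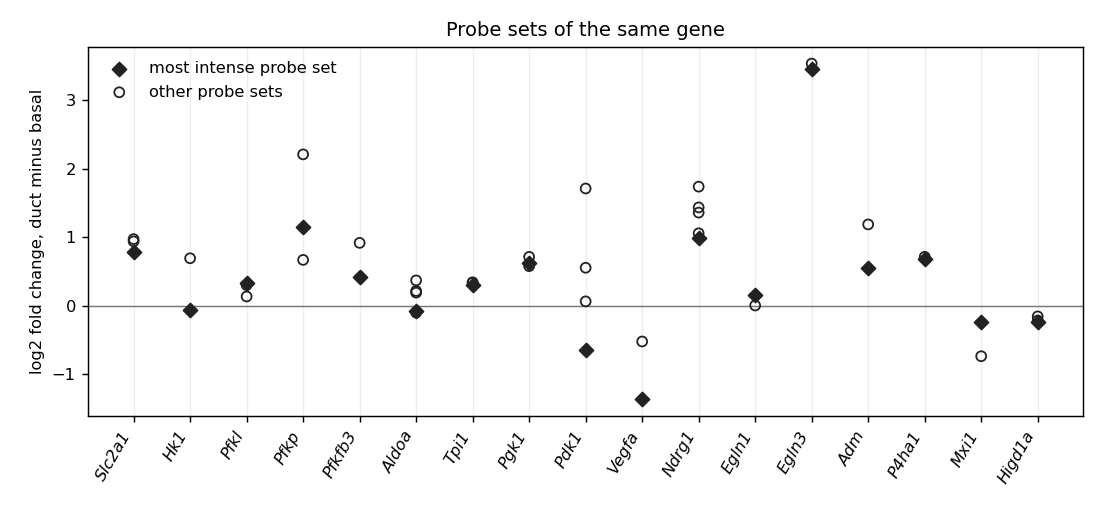
Log2 fold change, duct minus basal, of each tested probe set (y axis) of the 17 genes with 2 or more; filled diamonds mark the most intense probe set, which stands for the gene. The probe sets of Egln3 lie together near 3.5 and the 5 of Ndrg1 all lie at 1 or above, while those of Pdk1 run from -0.64 to 1.71. The highest Pdk1 value is from a probe set that passed the filter only through duct arrays.

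The other genes of the pathway came from lists written for this comparison. Of 15 tested genes of glycolysis and lactate outside the members, 2 were called higher and 0 lower. Over all tested genes 0.838% were called higher and 0.136% lower. Before adjustment (limma p under 0.05) 2 of the 15 were higher and 3 lower, where 7.91% and 10.6% of all genes were. A positive log2 fold change was found for 7 and a negative one for 8, with a median of -0.003. Slc16a1, a carrier of lactate, pyruvate and ketone bodies, measured 247 and 253 on the basal arrays, against 2669, 1542 and 3067 on the duct arrays. It rose by a log2 fold change of 3.14 (adjusted p = 0.0306, SE 0.36), or 8.83-fold, with every duct array above both basal arrays. Pdk4, a pyruvate dehydrogenase kinase of fasting and fat oxidation, measured 1717 and 1914 in basal and 8390, 7630 and 9701 in duct cells, and rose by 2.22 (adjusted p = 0.0279, SE 0.24), or 4.67-fold. Both calls were lost with no filter on low values (adjusted p = 0.0757 and 0.0776) and with every probe set tested (0.0611 and 0.0618). Averaging its probe sets took Slc16a1 to 2.19 (adjusted p = 0.0471). Leaving out each of the 5 arrays in turn ended the call of Pdk4 (adjusted p 0.0727 to 0.212), and Slc16a1 stayed called only without duct replicate 2 (0.0476; 0.0794 to 0.217 without another array).

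Values within these families ran in both directions. Pdk2, another pyruvate dehydrogenase kinase, measured 908 and 1615 in basal and 352, 353 and 316 in duct cells, at -1.79 (adjusted p = 0.0727, SE 0.32), with no overlap; Pdk1, Pdk2 and Pdk3 did not pass. Slc16a3 and Slc16a7, the latter named for its family, were at -0.53 and -1.40 beside the rise of Slc16a1. Hk2 and Pfkp lay above both basal arrays on every duct array, while the groups of Hk1 and Pfkl overlapped. The differences between family members were not tested.

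**Figure D5:**
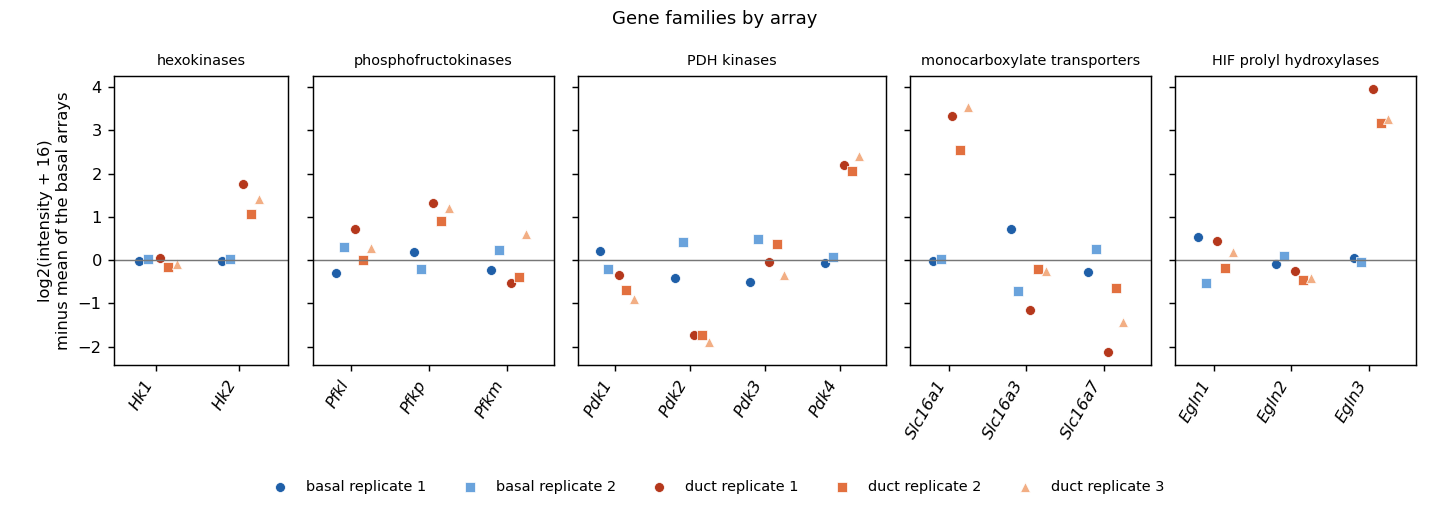
Values of 5 gene families by array, as log2(intensity + 16) minus the mean of the basal arrays (y axis). Slc16a1, Pdk4 and Egln3 stand 2 or more above the basal mean on each duct array, while Pdk2 and Slc16a7 lie below; levels are not comparable between genes.

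Of 8 tested genes of the HIF machinery 0 were called, where 0.973% of all tested genes were. Hif1a, the oxygen-sensitive subunit, measured 1959 and 1747 in basal and 2564, 3104 and 2222 in duct cells, at 0.49 (adjusted p = 0.373), with duct arrays above the basal ones. Hif1an, the asparagine hydroxylase that limits HIF activity, was at -0.46 and Hif3a at -0.56, both with overlap, and Hif3a turned to 0.06 without duct replicate 1. At an unadjusted limma p under 0.05, 0 of the 8 passed in either direction, where 7.91% of all genes were higher and 10.6% lower.

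Of 15 tested further HIF targets 0 were called by limma, where 0.973% of all tested genes were. Before adjustment (p under 0.05) 6 were higher and 0 lower, where 7.91% and 10.6% of all genes were. Hmox1, heme oxygenase 1, which oxidative stress also induces, measured 379 and 365 in basal and 4823, 3890 and 1776 in duct cells, at 3.06 (adjusted p = 0.0551, SE 0.46). It was called with quantile normalization (adjusted p = 0.0372), median centring (0.00140) and 4 further settings. Igfbp3, an IGF binding protein, measured 2887 and 3386 against 9272, 10468 and 8773, at 1.60 (adjusted p = 0.0551, SE 0.24), and Tfrc, the transferrin receptor, 959 and 1598 against 3544, 2677 and 3102, at 1.31 (adjusted p = 0.119, SE 0.31). Igfbp3 was called in 5 settings, among them median centring (adjusted p = 0.0348), the stricter filter (0.0206) and averaged probe sets (0.0356). The groups of these 3 genes did not overlap. The median of the 15 was -0.03, near that of all genes.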

How the data were processed

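RNA of 2 basal and 3 duct samples was hybridised to 1 Affymetrix array each, per the labels. The values deposited by the authors are linear intensities, 1 for each probe set on each array. Every array had the same mean of 500.0 once the top and bottom 2% of probe sets were set aside, and the arrays were not quantile normalized. How probe sets were summarised and background was corrected is not given in the sources used here. Of 45101 probe sets, 64 controls were left out of the tests; 34945 had 1 gene symbol in the platform annotation, 932 several and 9160 none listed. The members and lists were chosen with earlier results of these data known.

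The probe set with the highest mean log2(intensity + 16) stood for a gene, after the lowest 40% of probe sets were left out. Groups were compared 2-sided in R 4.3.3 with limma 3.58.1 (lmFit, eBayes; 3 residual degrees of freedom, 2.79 from the prior) and Benjamini-Hochberg adjustment, tested on simulated data. Background was the brightest of 27 Bacillus probe sets. Precision is limited by the number of arrays. Genes beyond the members were named by size within each pathway list, up to 3 a list, or for their family after their values were seen. Replicate numbers pair no samples, since each sample was a separate pool. Alternatives were other normalizations, pseudocounts, filters and probe set choices, an intensity trend with a robust fit, a replicate block, and leaving out each array. Gapdh was tested as an alternative chosen after seeing the data. Figures were drawn with matplotlib 3.10.9. A surface antigen used in both sorts is not reported here.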

Additional observations from a re-analysis of the deposited data

How the results depend on the processing

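Egln3 stayed higher in duct cells in all 16 alternatives, at 3.02 to 3.67 on the log2 scale, and was called in 11; of the 29 tested genes, 19 kept their sign in every alternative and 10 did not. The cause of the changes below was not tested. The 122 calls over all genes became 338 with median centring, 303 with a pseudocount of 64, 36 with no filter, 408 with a filter at 60%, 191 with probe sets averaged per gene, 63 with every probe set tested and 942 with the trend and robust fit. The last called 6 glycolysis and 3 HIF response genes, where it called 7.51% of all tested genes (4.51% higher and 3.01% lower). The 60% filter called 1 glycolysis gene, where it called 4.39% of all genes tested there. The glycolysis median moved to 0.65 with median centring. The share of calls that were higher in duct cells was 86.1%, and 68.6% with a pseudocount of 64, 61.3% with the 60% filter, 74.3% with the mean of probe sets, 59.98% with the trend and robust fit and 97.2% with no filter.

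The replicate block, in which duct replicate 3 has no partner and adds nothing to the difference, called 0 genes with limma (650 higher and 958 lower at an unadjusted p of 0.05), 0 HIF response genes among them, with Egln3 at 3.57 (adjusted p = 0.191) and Rpia at 0.056. Same-numbered arrays deviated with correlations of -0.083 and -0.037. The deviations of the 2 basal arrays from their mean mirror each other, so these values cannot decide on pairing. The numbers were not taken as pairs because each sample was a separate pool. Leaving out 1 array gave 0 to 48 calls over all genes, 0 to 1 HIF response genes called, a HIF response median of -0.095 to 0.43, and Egln3 at 3.22 to 3.61. The 0 calls came without basal replicate 2 (931 higher and 882 lower by limma before adjustment); there were 2 without basal replicate 1, 1 without duct replicate 3, 24 without duct replicate 2 and 48 without duct replicate 1. With 1 basal array left, its spread is taken to be that of the duct group.

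Some small differences turned. With quantile normalization Hk1 was at 0.028, Ldha at -0.036 and Car9 at 0.12. With median centring Hk1 was at 0.15, Aldoa at 0.12, Car9 at 0.18, Ddit4 at 0.014 and Rpia at 0.10, and with a pseudocount of 64 Car9 was at 0.000302. With the mean of probe sets Hk1 was at 0.32, Aldoa at 0.12, Pdk1 at 0.42, Hif3a at 0.094 and Pck2 at -0.53. Leaving out 1 array gave ranges across 0 of -0.21 to 0.043 for Aldoa, -0.20 to 1.34 for Aldoc, -1.26 to 0.19 for Slc16a3, -0.50 to 0.52 for Car9, -0.23 to 0.056 for Rpia, -0.23 to 0.53 for Pck2, -0.39 to 1.67 for Pfkfb4, -0.37 to 0.68 for Egln1, -0.48 to 0.076 for Ddit4 and -1.09 to 0.063 for Hif3a.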

Other observations

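Pyruvate oxidation was read from 10 tested genes of pyruvate dehydrogenase, the mitochondrial pyruvate carrier and the citric acid cycle. None was called with limma, where 0.973% of all tested genes were. Before adjustment (p under 0.05) 1 was higher and 0 lower, where 7.91% and 10.6% of all genes were. Pdhb, a subunit of pyruvate dehydrogenase, measured 3291 and 3549 in basal and 5434, 5354 and 4861 in duct cells, at 0.61 (adjusted p = 0.241). Cs, citrate synthase, measured 4966 and 5181 against 7290, 6951 and 8583 (0.58, adjusted p = 0.275), and Fh1, fumarase, was at 0.50. The duct arrays lay above both basal arrays in 6 of the 10 genes and below in 1, where 16.5% and 22.6% of all tested genes did, and the median was 0.31.

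The pentose phosphate pathway, which branches from glycolysis, had 6 tested genes, 0 of them called by limma or past an unadjusted p of 0.05. Over all tested genes 0.973% were called, and 7.91% were higher and 10.6% lower before adjustment. Tkt, transketolase, measured 7999 and 10309 in basal and 13729, 11420 and 13570 in duct cells (0.50, adjusted p = 0.357), Pgd was at 0.27 and Rpia at -0.11. Of 6 listed genes of gluconeogenesis 3 were tested, as Fbp1, Pck1 and G6pc were below the filter. By limma 0 of the 3 were called, where 0.973% of all tested genes were. Before adjustment (p under 0.05) 2 were higher, where 7.91% of all genes were. The median of the 3 was 0.73, and that of all 6 with no filter was 0.40. Fbp2, the muscle-type fructose bisphosphatase, measured 284 and 199 in basal and 863, 502 and 494 in duct cells (1.27, SE 0.35, adjusted p = 0.150), and G6pc3, the widely expressed glucose 6-phosphatase, was at 0.73. Pck2 was at 0.15 with overlapping groups.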
